A study of Homo sapiens with 6 samples.

Results

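Histone deacetylases (HDACs) remove acetyl groups from histone tails, and the class I enzymes do so inside corepressor complexes that DNA-bound factors bring to genes. Acetylation of the nucleosomes at a start site goes with transcription, and inhibitors of the enzymatic step are known to raise transcripts of genes that belong to other tissues and that the treated cell had kept at very low levels. Trichostatin A (TSA) is an inhibitor of that kind. The genes described here are 65 named genes that were near-silent in a neuroblastoma line under solvent and passed a set level under TSA, and the question asked of them is what level they had under E6R.

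The 65 members were chosen by their measured levels, out of 36601 genes in each matrix. Symbols with a dot or a hyphen and symbols starting LINC were left out, which left 19730 named genes, and 8036 of these were under 3 counts per 1000000 (CPM) in both DMSO libraries. A member was also at 10 CPM or more in both TSA libraries. PLIN5, HES4, TCN2, AGRN and the HIST genes were left out by the same rule. CPM here is the number of unique molecular identifiers (UMIs, each standing for 1 captured RNA molecule) of a gene per 1000000 UMIs of all genes, summed over the cells of 1 library, and it is not divided by gene length. The members were 0.809% of the near-silent named genes. Because the DMSO and TSA libraries chose the members, the difference between those groups is fixed by the rule, and it is given as a description.

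The study measured single-cell RNA by Seq-Well S3, in which a bead with a barcode captures the RNA of the cell in its well. The cells were SK-N-BE(2)-C, a human neuroblastoma cell line. There were 6 libraries in 3 groups of 2: DMSO, the solvent control, TSA, and E6R. In its title the series calls an inhibitor of HDAC complexes non-enzymatic, and the design text groups the agents as HDAC inhibitors. The sources used here give no dose, no treatment time and no structure of E6R, and all 3 groups share 1 cell line. Nothing in the labels says that the replicates came from separate cultures, so a p-value here measures only the spread between these libraries, which may be technical. The deposited name of TSA replicate 2 carries a mark that the labels do not explain, and with TSA replicate 1 alone on the TSA side the rule found 83 genes, all 65 members among them.

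After cells with under 500 genes or over 20% mitochondrial UMIs were removed, the libraries held 1861 to 3946 cells and 4206366 to 26180262 UMIs in cells. The DMSO libraries were the shallowest, with 4206366 and 4793493 UMIs, so 1 UMI was worth more CPM there than under TSA or E6R. Mitochondrial UMIs made up 5.83% and 6.20% under DMSO, 6.08% and 9.71% under TSA, and 1.55% and 1.51% under E6R. Of 12 markers of adrenergic neuroblastoma, 11 were at 10 CPM or more in every library, and their sum lay between 3942 and 7179 CPM. The summed T cell, B cell, myeloid and erythroid markers were each at most 7.91 CPM in any library. Summed epithelial markers (5 genes) were 94.5 to 114 CPM under DMSO and E6R and 21.9 and 36.8 CPM under TSA, and summed liver markers (3 genes) were 19.6 CPM in DMSO replicate 2 and at most 1.20 CPM elsewhere. Summed endothelial markers (3 genes) were 55.4 and 65.8 CPM in replicate 1 of DMSO and of E6R and 1.91 to 10.6 CPM in the other 4 libraries, and summed mesenchymal markers (8 genes) were 1331 and 822 CPM under DMSO, 3059 and 1899 CPM under TSA and 2002 and 1312 CPM under E6R. What part these differences have in the members' levels was not tested.

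The start sites of the members matched the RefSeq promoter table (GRCh38.p14) for 45 of 65 members (69.2%), which is under the 80% needed for a check over the set, so a count of promoter features over all members is void. The 250 bases before the start of 4 members are printed because these members carry the extremes of the result: SLC17A7, RTBDN and ATP1B2 had the highest mean TSA levels, and EIF2S3B had the highest level under E6R. Each is written 5′ to 3′ on the strand of the gene, with GGGCGG or its reverse complement in capitals. GGGCGG is the GC box, a motif of Sp1-family factors.
SLC17A7: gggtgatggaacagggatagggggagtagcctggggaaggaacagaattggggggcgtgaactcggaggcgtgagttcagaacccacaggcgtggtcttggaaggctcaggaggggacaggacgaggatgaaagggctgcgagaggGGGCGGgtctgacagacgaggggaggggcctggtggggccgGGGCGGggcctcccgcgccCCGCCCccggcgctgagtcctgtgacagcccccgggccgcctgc
RTBDN: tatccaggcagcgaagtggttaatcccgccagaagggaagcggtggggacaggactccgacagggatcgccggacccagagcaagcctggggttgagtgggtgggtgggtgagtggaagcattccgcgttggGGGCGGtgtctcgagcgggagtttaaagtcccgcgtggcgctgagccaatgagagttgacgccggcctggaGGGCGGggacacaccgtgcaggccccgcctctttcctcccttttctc
ATP1B2: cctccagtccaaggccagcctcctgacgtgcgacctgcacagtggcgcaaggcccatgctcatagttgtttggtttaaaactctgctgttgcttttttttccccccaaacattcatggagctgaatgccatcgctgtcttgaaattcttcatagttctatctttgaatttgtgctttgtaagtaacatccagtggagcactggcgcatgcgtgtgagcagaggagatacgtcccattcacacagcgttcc
EIF2S3B: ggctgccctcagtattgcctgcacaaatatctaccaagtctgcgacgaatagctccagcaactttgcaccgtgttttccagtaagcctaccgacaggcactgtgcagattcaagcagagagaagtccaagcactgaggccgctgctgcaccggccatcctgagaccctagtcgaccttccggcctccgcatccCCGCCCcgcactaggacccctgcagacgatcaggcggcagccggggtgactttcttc

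The SLC17A7 window (chr19:49441528-49441777, minus strand) held 3 GC boxes, was 70% G and C, and lies inside the GENCODE 29 span of the gene, upstream of the RefSeq start. RTBDN (chr19:12835429-12835678, minus strand) had 2 boxes and 64.4% G and C. The EIF2S3B window (chr12:10505640-10505889, plus strand) had 1 box and 59.2% G and C and also lies inside the GENCODE 29 span of its gene. The window of ATP1B2 (chr17:7646377-7646626, plus strand) had none and 49.2% G and C. Of all 27305 RefSeq windows of this length, 42.3% held GGGCGG on either strand. The letters TATAAA, searched on both strands, were in none of the 4 windows and in 11.1% of all windows. These matches describe the letters of the windows only. In gene models, all 65 members were protein coding, 26 overlapped another gene, and 20 of them overlapped a gene on the other strand. The sources used here do not give the strand setting of the counting, so reads of an overlapping partner cannot be told apart for those 26. RTBDN is 1 of them.

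The members had a median of group means of 1.41 CPM under DMSO, 15.1 CPM under TSA and 0.851 CPM under E6R. Summed over the 65 genes, the level was 87.5 and 99.1 CPM in the DMSO libraries, 1185 and 1052 CPM in the TSA libraries, and 88.5 and 69.3 CPM in the E6R libraries. The sums under E6R lay on both sides of the lower DMSO value, and the TSA sums stood far from both. A sum over cells cannot tell fewer cells with a transcript from fewer transcripts per cell.

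**Figure D1:**
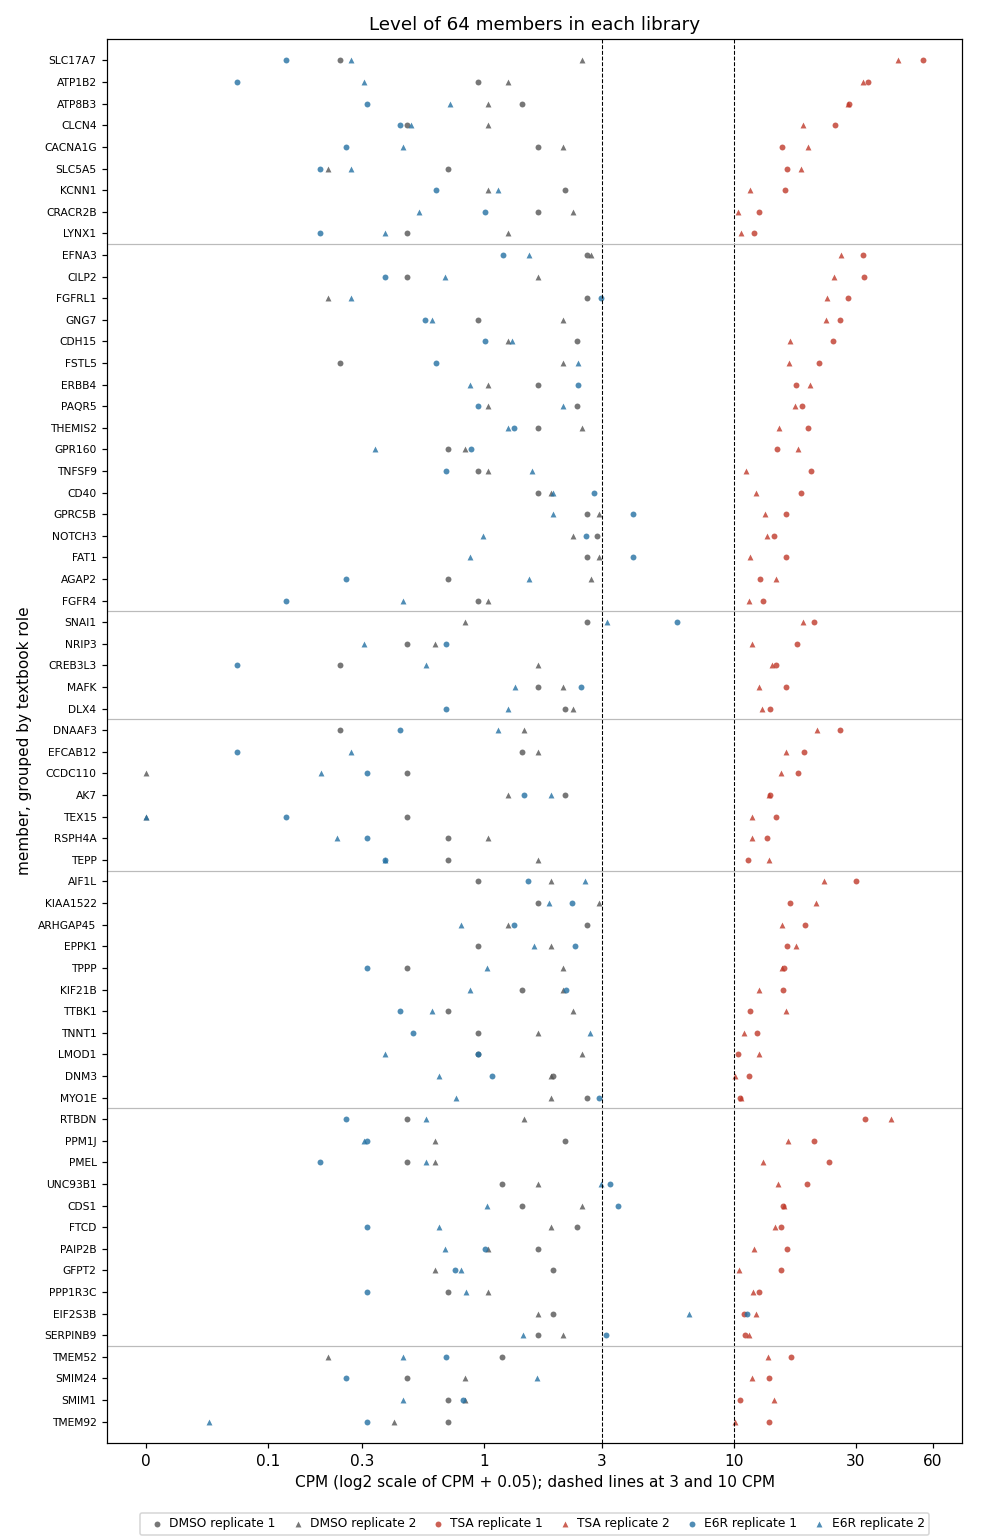
Level of 64 of the 65 members in the 6 libraries, on a log2 scale of CPM + 0.05, with members grouped by textbook role and dashed lines at 3 and 10 CPM; circles and triangles mark replicates 1 and 2. The DMSO points lie under 3 CPM and the TSA points at 10 CPM or more by the rule, and the E6R points of 57 members lie under 3 CPM in both libraries.

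Under E6R, 57 of 65 members stayed under 3 CPM in both libraries, and 29 of these were under 1 CPM in both. Another 6 members had 1 library at 3 CPM or more, which was replicate 1 each time. Only SNAI1 and EIF2S3B were at 3 CPM or more in both E6R libraries, which is 3.08% of members. Among the other 2121 near-silent named genes tested, 1.27% were. None of the members was at 10 CPM or more in both E6R libraries, and the share among the other near-silent genes was 0%. In 64 of 65 members both TSA libraries lay above both E6R libraries, against 33.4% of all genes tested and 54.5% of the other near-silent genes, and the rule had set the TSA side of this. The ratio of the summed TSA level to the summed E6R level was 17.4 at the median, 1.38 at the lowest (EIF2S3B) and 277 at the highest (TEX15). The TSA libraries chose the members, so these ratios carry no test. Without E6R replicate 2, the deeper of the E6R libraries, 8 members were at 3 CPM or more and 1 (EIF2S3B) was at 10 CPM or more in the library that was left.

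The comparison of E6R with DMSO used edgeR's quasi-likelihood test over 16763 genes, and the DMSO side of it also chose the members, by their low level. All 65 members passed the low-count filter with the TSA libraries in the fit, where they are high, and 39 passed it with only the DMSO and E6R libraries. SLC17A7, RTBDN, ATP1B2 and CILP2 were among those that did not pass it without the TSA libraries. None of the members passed an adjusted p of 0.05, nor did any other gene (0% called), and the members' adjusted p ran from 0.205 to 0.994. Without adjustment, 3 members had p under 0.05 with a higher level under E6R (SNAI1, UNC93B1 and EIF2S3B), against 8.04% of all genes tested and 2.17% of the other near-silent genes. On the lower side were 11 members (16.9%), against 9.34% of all genes and 20% of the other near-silent genes. With only the DMSO and E6R libraries in the fit, 1 of the 39 members tested was higher and 3 were lower at that p. In that fit 1836 of 14857 genes had an unadjusted p under 0.05 in either direction. DESeq2 called 4 members, EIF2S3B as higher and EFCAB12, SLC17A7 and CACNA1G as lower, with 2.02% of all genes called. edgeR without the low-count filter called these 4 and SNAI1, with 3.47% of 31532 genes called. For TSA against DMSO the rule had fixed the outcome for the members, so no count of members passing is given. In that comparison, 16.2% of all genes tested passed as higher and 13.5% as lower.

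Most members could not be placed above or below DMSO by their libraries. In 41 members the E6R and DMSO libraries overlapped. In 20 members (30.8%) both E6R libraries were below both DMSO libraries, against 28.5% of all genes tested and 41.5% of the other near-silent genes. In 4 members (6.15%) both were above, namely EIF2S3B, SNAI1, UNC93B1 and CD40, against 17.4% of all genes and 10.3% of the other near-silent genes. The fitted difference was below 0 in 44 members (67.7%), against 47.9% of all genes and 66.3% of the other near-silent genes, and its median was -0.49 on the log2 scale. With only the DMSO and E6R libraries in the fit, 22 of the 39 members tested were fitted lower. Leaving out 1 library moved the count below DMSO to 31 to 36 and the count above to 9 to 17 where that library was a DMSO or E6R one, because fewer libraries had to be separated. The share below both controls was near that of all genes and under that of the other near-silent genes, and the share fitted lower was near that of the other near-silent genes, some of which reached 10 CPM in 1 TSA library.

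**Figure D2:**
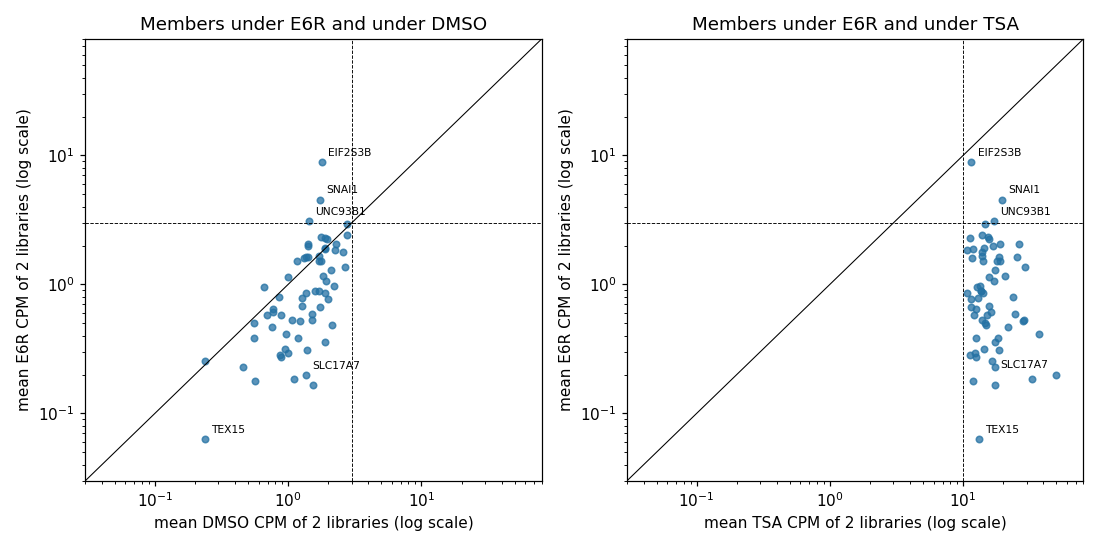
Mean CPM of each member under E6R against its mean under DMSO and under TSA, 2 libraries each, on log scales. EIF2S3B is the member nearest to equal levels under E6R and TSA, with a ratio of 1.38, and that of SLC17A7 was 232.

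EIF2S3B was the exception among the members. It is a copy of EIF2S3, the gamma subunit of the initiation factor that brings the first transfer RNA to the ribosome, and it lies on chromosome 12 at 10505602 to 10523135 (GRCh38). Its level was 1.90 and 1.67 CPM under DMSO, 10.9 and 12.2 CPM under TSA, and 11.2 and 6.65 CPM under E6R. E6R and TSA libraries overlapped, and both were above DMSO. The fitted difference of E6R from DMSO was 2.45 ± 0.44 (log2, SE; edgeR adjusted p = 0.205, n = 2 libraries a group), and DESeq2 gave an adjusted p of 0.00551. The sequence of EIF2S3B is nearly that of EIF2S3, and reads could be split between them by the counting, so its level is uncertain. EIF2S3 itself had 179 and 120 CPM under DMSO, 283 and 248 CPM under TSA and 268 and 229 CPM under E6R. Both genes therefore stood higher in the TSA and E6R libraries than in the DMSO libraries.

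The 9 transport and excitability genes had a median of 0.356 CPM under E6R. All 9 of them stayed under 3 CPM in both E6R libraries, and 7 were under 1 CPM in both. The fitted difference from DMSO was below 0 in 9 of 9 (47.9% of all genes and 66.3% of the other near-silent genes). Of these 9, at least SLC17A7 and ATP1B2 were in the fit only through the TSA libraries, which chose them as high. The role was assigned after the values were seen, so the 9 of 9 is no test of the role. SLC17A7, the vesicular glutamate transporter of excitatory neurons (chromosome 19, 49429401 to 49442360, minus strand), had 0.238 and 2.50 CPM under DMSO, 55.1 and 43.9 CPM under TSA, and 0.127 and 0.267 CPM under E6R. The E6R values rest on 2 and 7 UMIs, and they overlap the DMSO range because DMSO replicate 1 held 1 UMI. The TSA level was 232 times the E6R level (95% counting interval 122 to 508). The difference of E6R from DMSO was -2.58 ± 0.84 (log2, SE; edgeR adjusted p = 0.218, DESeq2 adjusted p = 0.0391), and without DMSO replicate 2 it was 0.01, so it came from 1 library. SLC17A7 passed the low-count filter only with TSA libraries in the fit, where it is high. All intervals given here cover counting error only.

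ATP1B2, a beta subunit of the sodium pump found in glia and neurons, had 0.951 and 1.25 CPM under DMSO, 33.5 and 32.0 CPM under TSA, and 0.0634 and 0.306 CPM under E6R. Both E6R libraries were below both DMSO libraries, with a difference of -2.25 ± 0.64 (log2, SE; edgeR adjusted p = 0.209). ATP1B2 too passed the low-count filter only with TSA libraries in the fit. CACNA1G, a T-type calcium channel, had 1.66 and 2.09 CPM under DMSO, 15.4 and 19.4 CPM under TSA, and 0.253 and 0.458 CPM under E6R. Here too the E6R libraries were lower than both controls, by -2.19 ± 0.50 (log2, SE; edgeR adjusted p = 0.205, DESeq2 adjusted p = 0.049). ATP8B3, a lipid flippase, had 1.43 and 1.04 CPM under DMSO, 28.3 and 28.1 CPM under TSA, and 0.317 and 0.726 CPM under E6R. CRACR2B, a regulator of store-operated calcium entry, had 1.66 and 2.29 CPM under DMSO, 12.5 and 10.4 CPM under TSA, and 1.01 and 0.535 CPM under E6R, and LYNX1, a modulator of nicotinic receptors, had 0.475 and 1.25, 11.9 and 10.7, and 0.190 and 0.382 CPM in the same order. These 3 genes also had both E6R libraries below both DMSO libraries. SLC5A5, the iodide transporter of the thyroid, had 0.713 and 0.209 CPM under DMSO, 16.2 and 18.2 CPM under TSA, and 0.190 and 0.267 CPM under E6R, where the groups of DMSO and E6R overlapped. The chloride transporter CLCN4 and the potassium channel KCNN1 overlapped as well, with E6R levels of 0.444 to 1.15 CPM.

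The 17 receptors, ligands, adhesion and signalling genes had a median of 1.37 CPM under E6R. The fitted difference from DMSO was below 0 in 10 (58.8%, against 66.3% of the other near-silent genes) and above 0 in 7. In 4 (23.5%) both E6R libraries lay below both DMSO libraries, against 28.5% of all genes, and in 1 they lay above. EFNA3, an ephrin ligand, had 2.62 and 2.71 CPM under DMSO, 31.9 and 26.2 CPM under TSA, and 1.20 and 1.53 CPM under E6R. GNG7, a G protein gamma subunit, had 0.951 and 2.09 CPM under DMSO, 26.1 and 22.8 CPM under TSA, and 0.570 and 0.611 CPM under E6R. In both genes the E6R libraries were below both controls, by -0.82 ± 0.35 for EFNA3 and -1.24 ± 0.48 for GNG7 (log2, SE; edgeR adjusted p = 0.278 and 0.25). FGFR4, a fibroblast growth factor receptor, and THEMIS2, a signalling adaptor of lymphocytes, were the other 2 that lay below.

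CD40, a receptor of the tumour necrosis factor family on antigen-presenting cells, had 1.66 and 1.88 CPM under DMSO, 18.3 and 12.2 CPM under TSA, and 2.79 and 1.91 CPM under E6R. It was the 1 gene of this role with both E6R libraries above both DMSO libraries, by 0.52 ± 0.44 (log2, SE; edgeR adjusted p = 0.569), and the nearest libraries differed little. GPRC5B, an orphan receptor, had 2.62 and 2.92 CPM under DMSO, 16.0 and 13.2 CPM under TSA, and 3.99 and 1.91 CPM under E6R. FAT1, a giant cadherin, had 2.62 and 2.92 CPM under DMSO, 16.0 and 11.5 CPM under TSA, and 3.99 and 0.879 CPM under E6R. In both genes the 2 E6R libraries fell on either side of DMSO. FGFRL1, a decoy fibroblast growth factor receptor, split by replicate number, with 2.62 and 0.209 CPM under DMSO, 27.9 and 23.1 CPM under TSA, and 2.98 and 0.267 CPM under E6R. CILP2, a cartilage matrix protein, had 0.475 and 1.67 CPM under DMSO, 32.2 and 24.7 CPM under TSA, and 0.380 and 0.688 CPM under E6R. GPR160, an orphan receptor, had 0.713 and 0.834, 14.7 and 17.8, and 0.887 and 0.344 CPM in the same order. Of the remaining members, the growth factor receptor ERBB4, the Notch receptor NOTCH3, the ligand TNFSF9, the membrane progestin receptor PAQR5, the secreted protein FSTL5, the GTPase AGAP2 and the muscle cadherin CDH15 all overlapped between E6R and DMSO and lay between 0.253 and 2.60 CPM under E6R.

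SNAI1 led the 5 transcription regulators. It encodes Snail, a repressor of E-cadherin in neural crest migration that recruits HDAC-containing complexes, and lies on chromosome 20 at 49982999 to 49988886. Its level was 2.62 and 0.834 CPM under DMSO, 20.7 and 18.5 CPM under TSA, and 5.96 and 3.13 CPM under E6R. Both E6R libraries were above both DMSO libraries and far below TSA, whose level was 4.68 times higher (95% counting interval 3.94 to 5.58). The difference from DMSO was 1.54 ± 0.56 (log2, SE; edgeR adjusted p = 0.235, unadjusted p = 0.0248), and it was 0.98 without DMSO replicate 2 and 2.67 without DMSO replicate 1. DLX4, a homeobox factor, had 2.14 and 2.29 CPM under DMSO, 13.8 and 12.8 CPM under TSA, and 0.697 and 1.26 CPM under E6R, so both E6R libraries were lower than the controls (-1.02 ± 0.45, log2, SE; edgeR adjusted p = 0.298). The hepatic stress factor CREB3L3, the small Maf protein MAFK and NRIP3 overlapped between E6R and DMSO.

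The 7 members of the motile cilium and germ cell role were at a median of 0.273 CPM under E6R. EFCAB12, a calcium-binding EF-hand protein (chromosome 3, 129401321 to 129428651, minus strand), had 1.43 and 1.67 CPM under DMSO, 18.8 and 16.0 CPM under TSA, and 0.0634 and 0.267 CPM under E6R. It had the lowest fitted difference from DMSO of all members, -2.90 ± 0.61 (log2, SE; edgeR adjusted p = 0.205, DESeq2 adjusted p = 0.0213). The E6R values of EFCAB12 rest on 1 and 7 UMIs. Of its 8 UMIs in DMSO replicate 2, 5 were in cells whose barcode was also a cell of another library. RSPH4A, a radial spoke protein of motile cilia, had 0.713 and 1.04 CPM under DMSO, 13.4 and 11.7 CPM under TSA, and 0.317 and 0.229 CPM under E6R. TEPP, a testis protein, was likewise below both controls (0.380 and 0.382 CPM under E6R against 0.713 and 1.67 CPM). DNAAF3, which assembles the dynein arms of cilia, had 0.238 and 1.46 CPM under DMSO, 26.0 and 21.1 CPM under TSA, and 0.444 and 1.15 CPM under E6R. TEX15, which silences transposons in male germ cells, had 0.475 and 0 CPM under DMSO, 14.6 and 11.7 CPM under TSA, and 0.127 and 0 CPM under E6R. By the limit of 3 counts, the counts of 0 allow levels of up to 0.626 CPM in DMSO replicate 2 and 0.115 CPM in E6R replicate 2. Its E6R level rests on 2 UMIs, so the ratio of 277 to TSA has a 95% counting interval of 76.0 to 2293. The antigen CCDC110 had 0.317 and 0.191 CPM under E6R, and the ciliary adenylate kinase AK7 had 1.46 and 1.87 CPM, both overlapping DMSO.

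The 12 cytoskeletal and contractile members had a median of 1.55 CPM under E6R, and none of them reached an unadjusted p of 0.05 against DMSO. At that p, 8.04% of all genes tested were higher and 9.34% lower, and 2.17% and 20% of the other near-silent genes. AIF1L, an actin-binding protein, had 0.951 and 1.88 CPM under DMSO, 30.1 and 22.6 CPM under TSA, and 1.52 and 2.56 CPM under E6R. KIAA1522 had 1.66 and 2.92 CPM under DMSO, 16.6 and 21.0 CPM under TSA, and 2.28 and 1.83 CPM under E6R. MYO1E, an unconventional myosin, had 2.62 and 1.88 CPM under DMSO, 10.6 and 10.7 CPM under TSA, and 2.91 and 0.764 CPM under E6R. The E6R and DMSO libraries overlapped in these 3 genes. DNM3, a dynamin of synapses, had 1.90 and 1.88 CPM under DMSO, 11.4 and 10.1 CPM under TSA, and 1.08 and 0.649 CPM under E6R. With the smooth muscle protein LMOD1 and the tau kinase TTBK1 it was 1 of 3 (25%) with both E6R libraries below both controls. That share was 28.5% over all genes tested and 41.5% over the other near-silent genes. Slow skeletal troponin T (TNNT1) had 0.507 and 2.67 CPM under E6R, on either side of DMSO. The microtubule genes KIF21B and TPPP, the plakin EPPK1 and ARHGAP45 overlapped DMSO and lay between 0.317 and 2.34 CPM.

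UNC93B1, which carries Toll-like receptors to endosomes, was the third member with a higher level at an unadjusted p under 0.05. It had 1.19 and 1.67 CPM under DMSO, 19.3 and 14.9 CPM under TSA, and 3.23 and 2.98 CPM under E6R, a difference from DMSO of 1.23 ± 0.41 (log2, SE; edgeR adjusted p = 0.222). The gene has copies of similar sequence in the genome, so its count is uncertain. FTCD, a liver enzyme of histidine and folate metabolism, had 2.38 and 1.88 CPM under DMSO, 15.3 and 14.4 CPM under TSA, and 0.317 and 0.649 CPM under E6R. It was lower than both controls by -1.93 ± 0.49 (log2, SE; edgeR adjusted p = 0.205, DESeq2 adjusted p = 0.0784). RTBDN, a riboflavin-binding protein of the retina, had 0.475 and 1.46 CPM under DMSO, 32.5 and 41.3 CPM under TSA, and 0.253 and 0.573 CPM under E6R. CDS1, an enzyme of phosphoinositide synthesis, had 1.43 and 2.50 CPM under DMSO, 15.5 and 15.6 CPM under TSA, and 3.49 and 1.03 CPM under E6R, and SERPINB9, the inhibitor of granzyme B, had 1.66 and 2.09, 10.99 and 11.4, and 3.10 and 1.45 CPM in the same order. The 3 genes overlapped between E6R and DMSO. The phosphatase PPM1J and the translation regulator PAIP2B lay below both controls, while the hexosamine enzyme GFPT2, the glycogen regulator PPP1R3C and the melanosome protein PMEL overlapped them, all at 0.190 to 1.01 CPM under E6R.

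Of the 4 small membrane proteins, TMEM92 had 0.713 and 0.417 CPM under DMSO, 13.7 and 10.1 CPM under TSA, and 0.317 and 0.0382 CPM under E6R, below both controls. TMEM52 had 1.19 and 0.209 CPM under DMSO, 16.7 and 13.5 CPM under TSA, and 0.697 and 0.458 CPM under E6R. SMIM1, the carrier of the Vel blood group, and SMIM24 also overlapped DMSO. At the thresholds of the rule, GPRC5B and KIAA1522 were just inside the DMSO limit (2.92 CPM each), and TMEM92 and DNM3 just inside the TSA limit (10.1 CPM each). Just outside were CLDN11 and ABTB2, with 3.09 CPM each in 1 DMSO library, and SPECC1 and DENND1C, with 9.91 CPM each in 1 TSA library. CLDN11, a tight junction protein, had 3.10 and 1.95 CPM under E6R, and DENND1C had 0.0634 and 0.115 CPM.

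Member UMIs were counted cell by cell. With each cell thinned to 1000 UMIs (503 to 1718 shallower cells left out per library), 65.9% and 60.9% of TSA cells held at least 1 member UMI, against 7.83% and 7.67% of DMSO cells and 8.96% and 7.72% of E6R cells. If the same UMIs were spread evenly over the cells, the TSA shares would be 68.2% and 62.4%. At least 2 members were found in 30.7% and 24.3% of TSA cells, 0.168% and 0.713% of DMSO cells, and 0.546% and 0.314% of E6R cells. E6R cells thus held members about as seldom as DMSO cells. Without thinning, cells with a member were 15.4% and 12.04% under DMSO, 81.4% and 78.0% under TSA, and 25.5% and 19.9% under E6R, and these shares move with the depth of the cells. All cells were of 1 line, so no cell type that should lack these genes was at hand as background. Barcodes outside the cells held the members at 0.781 and 0.758 times their level in the cells under TSA, and the part of such RNA in the shares of cells was not tested. Single members were found in 0.594% to 4.97% of thinned TSA cells. The number of cells with a member, divided by that of an even spread of its UMIs before thinning, was 0.922 at the median, 0.757 for SERPINB9 and 0.992 for the tau kinase TTBK1.

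**Figure D3:**
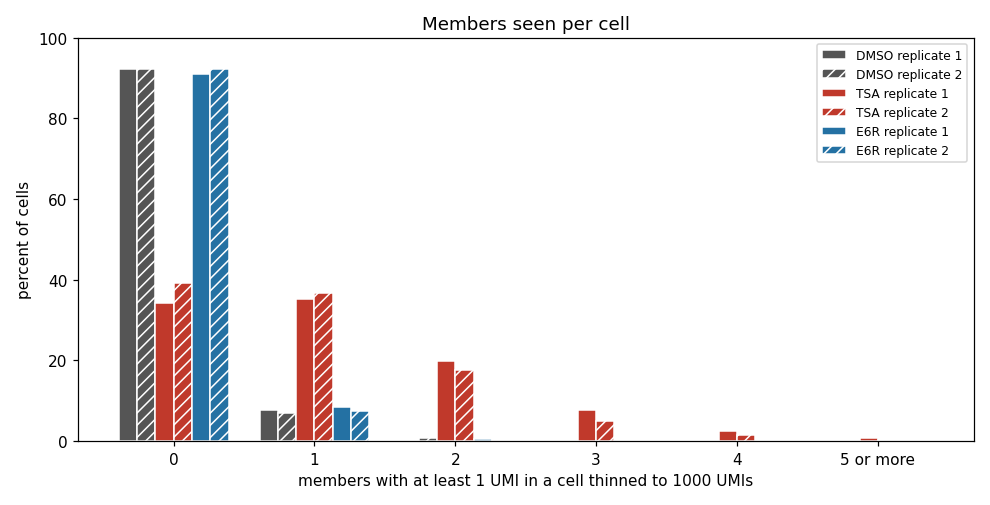
Percent of cells by the number of members with at least 1 UMI, after thinning each cell to 1000 UMIs, for each of the 6 libraries. At least 1 member was found in 65.9% and 60.9% of TSA cells and in 7.67% to 8.96% of the DMSO and E6R cells.

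Libraries shared some cell barcodes, 11 to 58 in each pair of libraries. Cells whose barcode was a cell of another library held 0.427% and 1.97% of the UMIs in cells under DMSO. The shares were 2.37% and 1.88% under TSA, and 6.01% and 16.2% under E6R. Cells whose barcode was deposited for another library held 8.34% (DMSO replicate 1) to 51.1% (E6R replicate 2). In DMSO, 16 and 38 cells carried a barcode that was also a cell of a TSA library. The members' summed level in those cells was 344 and 714 CPM (6 and 53 UMIs), against 86.4 and 89.4 CPM in all other DMSO cells. In E6R, 22 and 57 cells carried such a barcode, with 69.4 and 74.9 CPM (2 and 281 UMIs) against 88.5 and 68.4 CPM. The cells with shared barcodes had a higher member level than the other cells in both DMSO libraries and in E6R replicate 2, and a lower one in E6R replicate 1. What part shared barcodes have in the levels was not tested. Without every cell whose barcode was a cell of another library, the rule found 76 genes, all 65 members among them. The DMSO replicate 2 level fell from 1.67 to 0.638 CPM for EFCAB12 and from 2.09 to 1.49 CPM for CACNA1G, whose fitted differences from DMSO became -2.29 and -1.94. SNAI1, EIF2S3B and UNC93B1 had no UMI in the DMSO cells left out, and their E6R levels without shared cells were 5.93 and 3.33 CPM, 10.8 and 5.61 CPM, and 3.10 and 3.01 CPM.

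**Figure D4:**
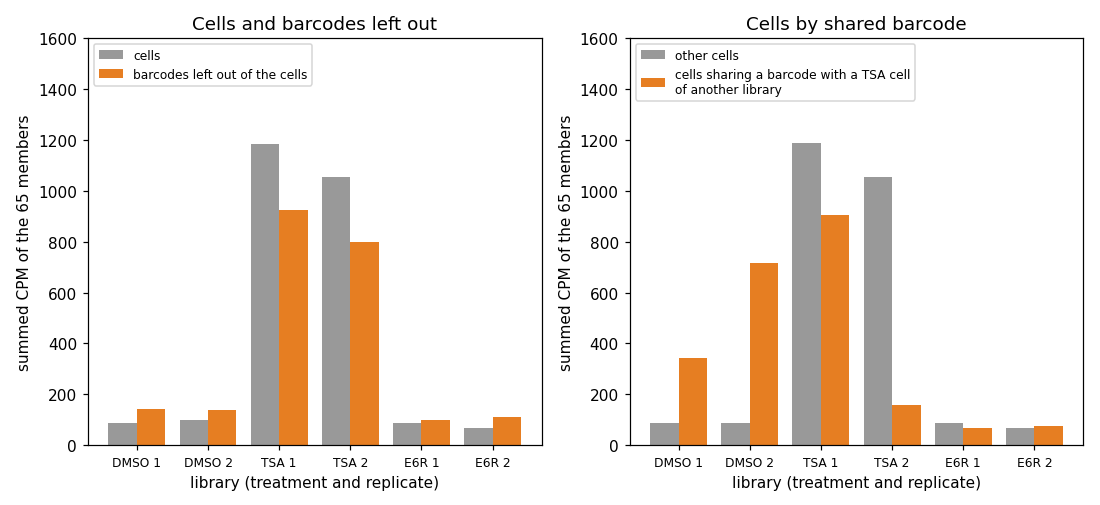
Summed CPM of the 65 members in each library, in cells and in barcodes outside the cells, and in cells with a barcode shared with a TSA library beside all other cells. Outside the cells the sum was 926 and 797 CPM in the TSA libraries and 100.4 to 144 CPM in the others.

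The choice of members was repeated with 1 replicate at a time, so that the other replicate had no part in it. On replicate 1 the rule found 124 genes, and in replicate 2, which did not choose them, 122 had a higher level under TSA than under DMSO, 100 reached 10 CPM under TSA, and 65 (52.4%) met both thresholds. On replicate 2 it found 109 genes, of which 107 were higher under TSA in replicate 1 and 65 (59.6%) met both. The 65 genes that met both thresholds are the 65 members each time, as the rule makes them. The same counts over all genes were not made, and the replicates may not be separate cultures. The counts in the other replicate are therefore a description and no support for the choice. In the other DMSO replicate, 83 of the 124 and 74 of the 109 were under 3 CPM, so the wider sets also hold genes outside the near-silent ones. Of these wider sets, 7 and 6 genes were at 3 CPM or more in both E6R libraries, and none was at 10 CPM or more in both. Among the other near-silent genes tested, the shares were 1.27% and 0%. The E6R libraries took no part in either choice.

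The HDAC machinery itself was not near-silent. All 34 genes listed for the class I HDAC corepressor complexes were tested, and none was under 3 CPM in both DMSO libraries, so none could be a member. Over all genes tested, 16.2% rose and 13.5% fell under TSA, and 8.04% were higher and 9.34% lower at an unadjusted p under 0.05 under E6R. Under TSA 7 of the 34 rose and 9 fell (edgeR adjusted p under 0.05), and under E6R none passed, with 8 higher and 0 lower at an unadjusted p under 0.05. Of 7 class II and IV HDACs, 1 rose and 2 fell under TSA and none passed under E6R. Of 23 tested genes that HDAC inhibitors often induce, 13 rose and 1 fell under TSA. None of the 23 passed under E6R, where no gene tested did. Of the 24 genes of this list in the matrices, 4 were near-silent under DMSO, and none was a member. Cilia motility genes gave DNAAF3 and RSPH4A, from 45 near-silent genes of that list. Of its 48 tested genes 18 rose and 1 fell under TSA, and under E6R none passed, with 1 higher and 9 lower at an unadjusted p under 0.05. At that p, 2.17% of the near-silent genes tested other than the members were higher under E6R and 20% were lower. Germline and cancer-testis genes gave TEX15, from 72 near-silent genes, muscle and heart genes gave TNNT1, from 51, and targets of the repressor REST gave SLC17A7, from 17.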

How the data were processed

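The deposited matrices hold whole-number UMI counts per gene and barcode for 6 libraries, not normalized. The submitters' processing notes name STARsolo 2.7.9a and GRCh38, while the sources used here do not give the annotation, the strand setting or the barcode rule. A barcode was kept as a cell when it had at least 500 genes and at most 20% mitochondrial UMIs (17589 in all), and counts were summed per library. No doublet caller was run, and each library was also analysed without its 5% deepest cells. Sums were tested by the quasi-likelihood method of edgeR 4.0.16 in R 4.3.3, two-sided, with TMM scaling, filterByExpr, treatment as the only term, all 6 libraries in 1 fit, and Benjamini-Hochberg adjustment over 16763 genes. The code was tested on simulated counts. DESeq2 1.42.0 was an alternative. An exact permutation test of 2 against 2 libraries cannot go below p = 0.333 and was not used for single values. TSA against E6R ratios compare summed UMIs, with exact 95% counting intervals. Library depth was 4206366 to 26180262 UMIs, where a count of 3 is 0.115 to 0.713 CPM.

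The members, lists and rules were chosen with earlier results of these data known. Values were to be given for the 10 members highest under TSA, the 8 highest under E6R, those with the smallest p for E6R against DMSO, those next to each threshold, those with the largest and smallest share of thinned TSA cells per CPM (a choice that follows the UMIs kept by thinning), and members of the listed families. Other members complete each role, and roles were assigned after the members' values were seen. Gene models came from GENCODE 29 (GRCh38). The values of 1 member are not reported here.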

Additional observations from a re-analysis of the deposited data

Results flagged for a closer look

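Barcodes outside the cells also held member UMIs. They took no part in the main tests, and entered only alternatives with other barcode limits, such as all deposited barcodes. The members summed to 926 and 797 CPM there in the TSA libraries, above the 144 and 140 CPM of the DMSO libraries, and to 100.4 and 110 CPM in the E6R libraries. These barcodes come from the libraries that chose the members, so the difference between TSA and DMSO follows from the choice. The sum outside the cells was 0.781 and 0.758 times that in the cells under TSA, 1.65 and 1.41 times under DMSO, and 1.13 and 1.59 times under E6R. How much of the level in cells comes from RNA outside them was not tested.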

How the results depend on the processing

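Depth limits the members most in DMSO, where many values rest on under 10 UMIs, and 2 libraries a group limit every comparison. The rule found 34 genes with a DMSO limit of 2 CPM, 27 with a TSA limit of 15 CPM, 124 and 109 on replicate 1 or 2 alone, and 65 to 100 with a library left out. Cells with 1000 or more genes left 1 member at 3 CPM or more in both E6R libraries (2 to 8 with a library left out, and 0 to 1 at 10 CPM). With cells thinned, 7 members were above and 13 below both DMSO libraries (4 to 17 and 20 to 36 with a library left out). The median E6R level was 0.904 CPM in thinned cells, 0.801 CPM without cells whose barcode was deposited for another library, and 0.697 to 0.851 CPM with a library left out. DESeq2 called 4 members, edgeR without a low-count filter 5, and edgeR with a library left out 0 to 0. With only DMSO and E6R libraries, 22 of 39 tested members were fitted lower, and 38 to 48 of 65 with a library left out. The labels give same-numbered replicates nothing in common but the number. Over the genes tested, their deviations from the group mean correlated at 0.0527 (DMSO and TSA), 0.445 (DMSO and E6R) and 0.25 (TSA and E6R). The same-numbered DMSO and E6R libraries thus varied partly together, which the main fit does not take up, and why they did was not tested. A fit with the replicate block called 0 members, with 19 genes called in all, a smallest member adjusted p of 0.0735 and 46 members fitted lower. For the 33 members named by rule, 564 of 615 log2 differences of E6R from DMSO kept direction and call, 9 passed in the same direction, and 42 changed sign, in 15 members. The changed signs were, for DNAAF3, -0.090 (total counts), -0.020 (only DMSO and E6R), -0.157 (all barcodes), -0.245 (300 or more genes), -0.017 (thinned cells), -0.620 (without the 5% of cells with most UMIs) and -0.303 (without barcodes deposited elsewhere). FAT1 gave 0.085 (no filter), 0.084 (thinned cells), 0.070 (without shared cells) and 0.453 (without barcodes deposited elsewhere). MYO1E gave 0.211 (all barcodes), 0.093 (300 or more genes) and 0.227 (thinned sums), CDS1 -0.353 (thinned sums) and -0.047 (without the 5%), GPRC5B -0.031 (thinned sums) and -0.132 (thinned cells), TMEM52 0.041 (no filter) and 0.146 (all barcodes), and KIAA1522 0.120 (no filter). With a library left out the ranges were -0.710 to 0.983 for CDS1, -1.341 to 0.394 for CILP2, -0.797 to 1.938 for DNAAF3, -1.418 to 0.701 for FAT1, -2.067 to 3.081 for FGFRL1, -0.926 to 0.364 for GPR160, -0.306 to 0.701 for GPRC5B, -0.265 to 0.487 for KIAA1522, -1.305 to 0.562 for MYO1E, -1.746 to 0.059 for RTBDN, -0.144 to 0.894 for SERPINB9, -3.281 to 0.008 for SLC17A7, -1.386 to 0.394 for SLC5A5, -4.320 to 2.782 for TEX15 and -0.872 to 1.638 for TMEM52. Where a group was left with 1 library, that library was assumed to vary like the others. The alternatives on shared barcodes, and the counts below DMSO and fitted below 0, were chosen after seeing the data. For each other change the cause was not tested.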

Other observations

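Of the members, 14 of 65 (21.5%) lay on chromosome 19, which held 7.63% of the named genes tested, and 9 (13.8%) on chromosome 1, which held 10.03%. No test was made of either share. Within 1000 kb of another member lay 14 of them. DNAAF3 and TNNT1, both on the minus strand of chromosome 19, lay 9.31 kb apart and had 0.444 and 1.15 CPM and 0.507 and 2.67 CPM under E6R. SLC5A5 and KCNN1 lay 56.1 kb apart on the plus strand of the same chromosome. Whether neighbours share transcripts was not tested.

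Members were 0.809% of all near-silent named genes, so a family of the sizes given here would hold few or none at that share. Families without a member were the keratins and junction genes of epithelia (47 near-silent genes), blood and immune genes (64), liver and plasma protein genes (50), zinc finger genes (93), cytochrome P450 genes (44), matrix metalloproteases and ADAM genes (41), HOX genes (27), collagens (27), lipid genes (26, in a list without PLIN5, which the rule left out), glia and myelin genes (22), interferon-stimulated genes (20) and open reading frames without a name (212). Solute carriers gave SLC17A7 and SLC5A5 of 185, G protein-coupled receptors GPR160 and GPRC5B of 102, and the TMEM genes TMEM52 and TMEM92 of 88. KCNN1 came from 66 near-silent potassium channel genes, CCDC110 from 62 CCDC genes, SERPINB9 from 79 serpins and serine proteases, and TNFSF9 from 29 symbols starting TNF. These families were read from symbols or textbook lists, and the counts carry no test.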
